A study of Mus musculus with 221 samples.

Results

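The 9 tubulin genes described here are the alpha-tubulin genes Tuba1a, Tuba1b and Tuba1c and the beta-tubulin genes Tubb2a, Tubb2b, Tubb3, Tubb4b, Tubb5 and Tubb6. They were taken by gene symbol from a table of estimated read counts per transcript, in which they hold 18 of the 278369 transcripts and are 9 of the 78317 genes. The genes were chosen by symbol, and the set was selected on their levels, shares and isoform fractions in these same cells, so every level and ratio below is a description of these libraries. The table comes from full-length cDNA of single mouse embryo cells, made by a Smart-seq2 protocol and read on nanopore flow cells in 3 runs. The study asked how RNA isoforms differ between kinds of hemogenic endothelium (HE), the endothelial cells that turn into blood, in the aorta-gonad-mesonephros (AGM) region of the embryo and in the yolk sac (YS).

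The cells came untreated from embryos with the reporter alleles GFI1-GFP and RUNX1B-RFP. All were sorted as RUNX1+, CD41- and CD45- with GFI1+/-, the AGM cells also as KIT- and CDH5+ and the YS cells as KIT+ and CD31+. The AGM groups were cluster c3 (early HE, 29 cells used), cluster c4 (late HE, 20 cells) and cluster c5 (labelled HE-Hb, 21 cells). The YS groups were a1 and a2 (early and late HE-YSA, 23 and 29 cells), b2 and b3 (early and late HE-YSP, 25 and 24 cells), the lymphomyeloid-skewed progenitors p1 (17 cells) and the erythromyeloid-skewed progenitors p2 (20 cells). HE-AGM below is c3 with c4 (49 cells), HE-YSA is a1 with a2 (52 cells) and HE-YSP is b2 with b3 (49 cells). At E9.0, E9.5 and E10.5 there were 2, 14 and 35 HE-YSA cells, with the day not given for 1. HE-YSP had 16, 13 and 20 cells at these days. By cluster these were 1, 7 and 14 in a1, 1, 7 and 21 in a2, 10, 2 and 13 in b2 and 6, 11 and 7 in b3. The p1 cells numbered 0, 2 and 15 and the p2 cells 5, 9 and 6. The labels give a day for only 1 of the 49 HE-AGM cells, E10.5, and for none of the 21 c5 cells. The part of embryonic day in the steps between clusters was not tested. Each sample is 1 cell, no embryo or litter is named, and AGM and YS cells came from different cDNA projects apart from 1 YS cell. Each population therefore counts as 1 sample, no test between populations was possible, and tissue, cDNA project and sorting gate cannot be told apart.

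Of 221 cells, 208 had at least the library-size limit of 17595 counts, and their totals ran from 18131 to 125339. The median total was 59311 in HE-AGM, against 34484 in HE-YSA and 33297 in HE-YSP. All 8 endothelial markers listed had at least 3 counts in each HE population. The mean length of the transcripts read also differed, with a median over cells of 1477 bases in HE-AGM, against 1159 in HE-YSA and 1156 in HE-YSP, and 45 of the 49 HE-AGM cells lay above every HE-YSA cell. Levels are given as CPM, the summed counts of a gene per 1000000 counts of all genes, with exact Poisson 95% intervals, and shares with exact Clopper-Pearson 95% intervals. Both cover counting error only, since amplified reads without molecular identifiers are not independent molecules.

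Alpha- and beta-tubulin pair into the heterodimer from which microtubules are built, the filaments of the mitotic spindle and of intracellular transport. Mammals have several genes of each kind whose proteins are almost alike, and the family also left many processed pseudogenes, intronless copies of spliced mRNA inserted elsewhere in the genome. Cells lower their tubulin mRNA when free dimer accumulates: the first amino acids of a tubulin chain leaving the ribosome are recognised and the mRNA being translated is then degraded. Tuba1b and Tubb5 are broadly expressed, Tuba1a and Tubb3 are best known from developing neurons, Tubb2a and Tubb2b are also abundant in brain, Tubb4b is found in dividing and ciliated cells, and Tubb6 is a divergent beta-tubulin.

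The first 30 coding bases of 5 member mRNAs are shown because they encode that recognised stretch, with the first 4 codons in capitals. They were read from GENCODE M21 transcripts, which held all 18 member transcripts at the same length as the deposited table.
Tuba1b-201: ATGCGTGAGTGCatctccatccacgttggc
Tuba1a-201: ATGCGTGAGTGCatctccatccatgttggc
Tubb5-201: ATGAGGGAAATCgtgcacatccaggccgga
Tubb4b-201: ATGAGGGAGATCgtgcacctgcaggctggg
Tubb3-201: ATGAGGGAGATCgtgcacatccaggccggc
On GRCm38, Tuba1b-201 lies on the minus strand at chr15:98931425-98934565 and Tuba1a-201 at chr15:98949837-98953703, each with 4 exons. Tubb5-201 lies at chr17:35833921-35838306 (minus strand), Tubb4b-201 at chr2:25222160-25224702 (minus strand) and Tubb3-201 at chr8:123411424-123422015 (plus strand), again with 4 exons each.

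HE-AGM held more counts assigned to the 9 genes than the YS populations did, and the difference lay almost wholly in the alpha genes. The 9 genes summed to 2192 CPM (2142 to 2243) in HE-AGM, against 1388 CPM (1336 to 1442) in HE-YSA and 1498 CPM (1440 to 1558) in HE-YSP. Within that, the 3 alpha genes held 893, 81.6 and 116 CPM, whereas the 6 beta genes held 1299, 1306 and 1382 CPM. The alpha genes thus made up 40.7% (39.6 to 41.9) of the counts of the 9 genes in HE-AGM, against 5.88% (5.00 to 6.82) in HE-YSA and 7.77% (6.77 to 8.90) in HE-YSP. Counted per base of transcript, these shares were 36.3%, 3.74% and 5.01%. As described further on, reads assigned to near-identical copies change this picture.

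Among genes with at least 50 counts over both populations, 29.8% were at least 2-fold higher and 12% at least 2-fold lower in HE-AGM than in HE-YSA. Of the 7 members with that many counts, 5 were apart in either direction, beside 41.8% of genes: 4 were higher (Tuba1a, Tuba1b, Tubb4b, Tubb6) and 1 was lower (Tubb3), with a median log2 ratio of 2.24 against 0.26 over all 8968 genes. Against HE-YSP the background was 31.6% higher and 13.2% lower, and of 7 members 3 were higher (Tuba1a, Tuba1b, Tubb4b) and 1 lower (Tubb3), 4 in all beside 44.8% of genes. The median there was −0.05 for the members and 0.31 for all 8803 genes. Between HE-YSP and HE-YSA, 6.06% of 6587 genes were at least 2-fold higher and 7.29% lower. Of 4 members, 1 was higher (Tubb6) and 0 were lower, beside 13.3% of genes apart in either direction.

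Steps between neighbouring clusters moved few members past 2-fold. From c3 to c4, 2 of 6 members were lower (Tuba1a and Tubb3) and 0 higher, beside 12.3% of genes lower and 6.03% higher. For c5 over c4, 0 of 4 members were higher or lower, beside 6.51% and 11.2% of genes. From b2 to b3, 1 of 4 members was lower (Tubb6) and 0 higher, beside 8.51% of genes lower and 9% higher. The other 3 steps each had 3 members with enough counts and 0 past 2-fold. For these the shares of genes higher and lower were 6.52% and 6.56% for a2 over a1, 7.16% and 9.98% for p1 over a2, and 4.96% and 7.03% for p2 over b3.

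**Figure D1:**
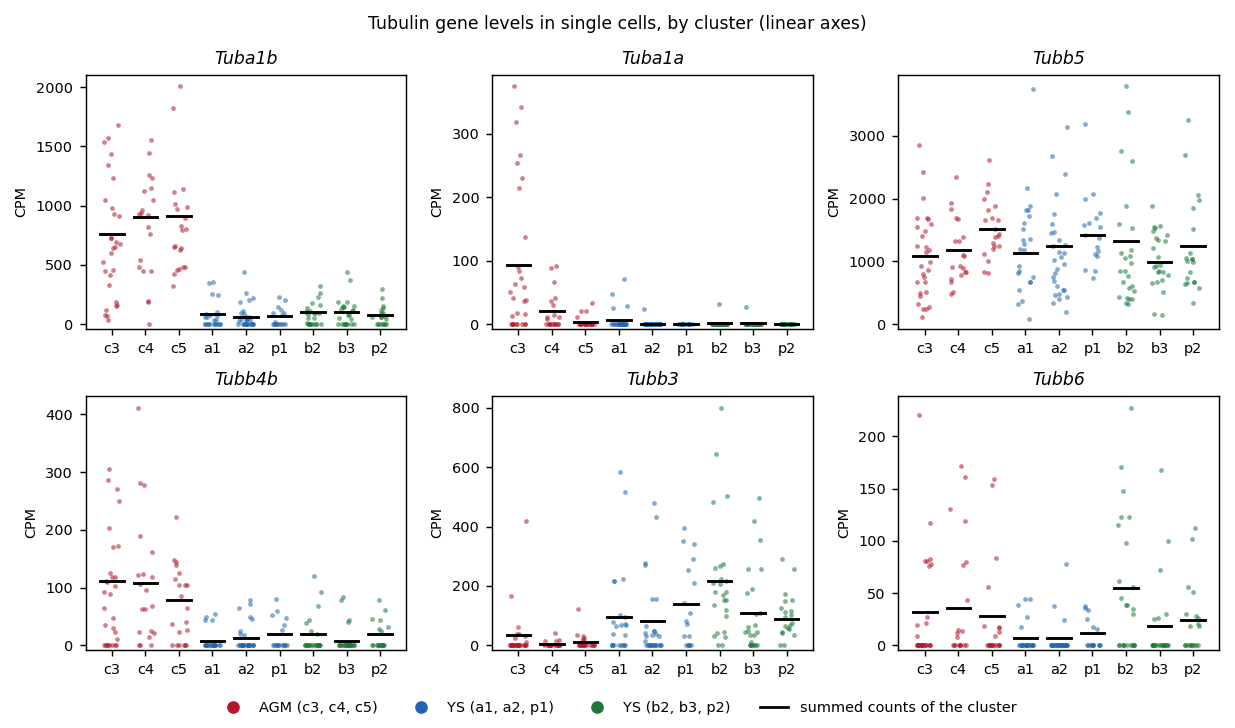
CPM of 6 tubulin genes (vertical axes, linear) in each cell used (points) and in the summed counts of each of the 9 clusters (black lines), with AGM clusters in red, YS clusters a1, a2 and p1 in blue and YS clusters b2, b3 and p2 in green. Tuba1b and Tubb4b stand higher in the AGM clusters, Tuba1a is highest in c3, Tubb3 is higher in the YS clusters, Tubb5 overlaps throughout, and Tubb6 is lowest in a1, a2 and p1.

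Tuba1b, the main alpha-tubulin gene of proliferating cells, showed the largest difference in counts. It stood at 759 CPM in c3, 904 CPM in c4 and 916 CPM in c5. In the YS it stood at 85.7 CPM in a1, 59.6 in a2, 68.5 in p1, 99.6 in b2, 99.7 in b3 and 77.7 in p2. The AGM levels thus all lay far above the YS levels: c4 and c5 did not differ beyond their counting intervals, c3 lay below both, and neighbouring YS clusters in the order of levels had overlapping intervals.

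Over single HE-AGM cells the level of Tuba1b ran from near 0 to 1678 CPM with a median of 724, over HE-YSA cells from near 0 to 439 CPM with a median of 33.4, and over HE-YSP cells from near 0 to 442 CPM with a median of 78.7. The ranges overlapped, but 37 of the 49 HE-AGM cells lay above every YS HE cell. Of the HE-AGM cells, 48 had at least 1 Tuba1b count, against 28 of 52 HE-YSA cells and 30 of 49 HE-YSP cells. The summed levels of 820 CPM (789 to 851), 71.1 CPM (59.9 to 84.4) and 99.7 CPM (85.3 to 116) gave log2 ratios of 3.53 (3.28 to 3.79) for HE-AGM over HE-YSA and 3.04 (2.81 to 3.27) for HE-AGM over HE-YSP. In runs 1, 2 and 3 taken alone these ratios were 2.66, 2.85 and 4.81 for HE-YSA and 2.66, 2.88 and 3.23 for HE-YSP. HE-YSP lay above HE-YSA by a log2 ratio of 0.49 (0.16 to 0.83), which was −0.01, −0.02 and 1.58 in the 3 runs. The 43 HE-AGM cells of the largest AGM cDNA project stood at 841 CPM, the 5 cells of another at 710 CPM (709.5) and the lone cell of a further project at 152 CPM.

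Tuba1a, the alpha-tubulin gene of migrating neurons, was low and differed along the AGM clusters. Its level was 92.7 CPM (79.8 to 107) in c3, 20.2 CPM (13.4 to 29.1) in c4 and 4.00 CPM (1.46 to 8.65) in c5. The intervals of these 3 levels did not overlap. The sum of the 10 neural markers listed moved with it, at 81.5, 33.1 and 9.94 CPM in the same clusters. Only 3, 2 and 1 of these markers reached 3 counts there, and their part in the difference was not tested. In the YS it was 6.83 CPM in a1, 1.05 in a2, 1.36 in b2 and 1.22 in b3, with fewer than 1 count in p1 and in p2. Both Tuba1a and the neural markers, at 30.9 CPM, were highest in a1 among the YS clusters. HE-AGM stood above HE-YSA by a log2 ratio of 4.12 (3.02 to 5.42) and above HE-YSP by 5.59 (3.84 to 8.76), on 6.86 and 2.16 YS counts. The first ratio was 1.72 in run 1 and 3.50 in run 2, and the second 5.33 in run 2 and 5.64 in run 3, while HE-YSA in run 3 and HE-YSP in run 1 had fewer than 1 count. Late over early HE-AGM was −2.20 (−2.83 to −1.63), and c3 exceeded c4 in every run, at 13.9 against 7.80 CPM, 153 against 39 CPM and 120 (120.2) against 18.5 CPM.

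Tuba1c, the third gene of the Tuba1 cluster, stayed between 4.74 CPM (a1) and 39.6 CPM (p2) in all 9 clusters. Its HE levels were 11.2 CPM in HE-AGM, against 6.88 CPM in HE-YSA and 15.5 CPM in HE-YSP. The HE-AGM ratios of 0.70 (−0.24 to 1.74) and −0.47 (−1.25 to 0.30) on the log2 scale had intervals that held 0. The p2 progenitors lay at a log2 ratio of 1.58 (0.52 to 2.71) over b3, on fewer than 50 counts.

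Tubb5, the most abundant beta-tubulin of most cell types, held most of the counts of the family in every cluster and was nearly level between the populations. Its levels were 1093 CPM in c3, 1181 in c4, 1512 in c5, 1136 in a1, 1252 in a2, 1420.2 in p1, 1330.0 in b2, 997 in b3 and 1245 in p2. Every cell had at least 1 count, and cells ranged from 110.2 to 2846 CPM in HE-AGM, 86.2 to 3738 CPM in HE-YSA and 141 to 3790 CPM in HE-YSP, so the populations overlapped almost fully. HE-AGM over HE-YSA was −0.09 (−0.16 to −0.01) and HE-AGM over HE-YSP −0.05 (−0.12 to 0.03) on the log2 scale. Runs differed by more than that, from −0.26 to 0.13 and from −0.39 to 0.34.

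Tubb5 differed along the clusters within a tissue. The c5 cells lay above c4 by a log2 ratio of 0.36 (0.26 to 0.45), p1 above a2 by 0.18 (0.06 to 0.30) and p2 above b3 by 0.32 (0.18 to 0.46), whereas b3 over b2 was −0.42 (−0.55 to −0.29). None of these steps reached 2-fold. In the same order, 76.8%, 60.7%, 70.9% and 21.6% of the genes with at least 50 counts had a ratio at or below that of Tubb5.

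Tubb4b, the beta-tubulin also used in cilia, followed Tuba1b. It stood at 111 CPM in c3, 109 in c4 and 79.2 in c5, and at 7.02 CPM in a1, 12.5 in a2, 19.4 in p1, 19.6 in b2, 8.15 in b3 and 19.2 in p2. Single cells reached 412 CPM in HE-AGM, against 79.1 CPM in HE-YSA and 121 CPM in HE-YSP, with 25 of 49 HE-AGM cells above every HE-YSA cell and 15 above every HE-YSP cell. The summed levels of 110.2 CPM (99.2 to 122), 10.1 CPM (6.0 to 15.6) and 14 CPM (8.72 to 20.6) gave log2 ratios of 3.45 (2.80 to 4.22) and 2.98 (2.39 to 3.68) for HE-AGM over HE-YSA and HE-YSP. Across runs the first ran from 1.40 to 4.61 and the second from 1.95 to 3.52.

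Tubb3, whose protein is the classic marker of neurons, went the other way. Its levels were 33.3 CPM in c3, 4.27 in c4 and 11.5 in c5, but 95.5 CPM in a1, 82.3 in a2, 139.9 in p1, 217 in b2, 109 in b3 and 89.2 in p2. HE-AGM at 21.2 CPM (16.4 to 26.6) lay below HE-YSA at 88.1 CPM (75.3 to 102.6) by a log2 ratio of −2.06 (−2.49 to −1.66) and below HE-YSP at 164 CPM (145 to 184) by −2.96 (−3.37 to −2.58). Both ratios were below 0 in all 3 runs, from −2.55 to −1.67 and from −3.94 to −2.50. The cells overlapped, since 1 HE-AGM cell held 419 CPM, yet 41 of 52 HE-YSA cells and 44 of 49 HE-YSP cells lay above the HE-AGM median.

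Tubb3 also differed within the yolk sac and along HE maturation. HE-YSP over HE-YSA was 0.90 (0.61 to 1.18) on the log2 scale, at 0.83, 1.97 and 0.34 in the 3 runs, so it fell short of the 2-fold rule. The early-to-late steps were −2.96 (−4.43 to −1.73) from c3 to c4, −0.21 (−0.66 to 0.25) from a1 to a2 and −0.99 (−1.36 to −0.61) from b2 to b3. The c3 to c4 step rested on few cells. In c3, 8 of 29 cells had at least 1 Tubb3 count, with a cell median near 0 and a highest cell of 419 CPM. In c4, 4 of 20 cells had at least 1, on 5.94 counts in all. The 10 neural markers listed summed to 61.3 CPM in HE-AGM, where Tubb3 was lowest, but 17.8 CPM in HE-YSA and 2.39 CPM in HE-YSP, with 3, 2 and 1 of them at 3 counts or more. Along maturation both were lower in the late cluster, with the neural sum at 81.5 CPM in c3 and 33.1 in c4, 30.9 in a1 and 7.51 in a2, and 4.70 in b2 and 0 in b3. The part of neural RNA in the Tubb3 levels was not tested. Sox2, Dcx, Elavl3 and Map2 were at 0 in all 3 populations, and of the 3 neural crest markers 0 had 3 counts in any.

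All Tubb3 counts fell on 1 short transcript. Tubb3-202 is 776 bases long and ends inside the last exon, while the full-length coding transcript Tubb3-201 has 1868 bases, of which 921 lie beyond the last base of Tubb3-202. The 776 bases of Tubb3-202 all occur in Tubb3-201. The transcripts part at the junction of exons 3 and 4, shown here because all counts of the gene were assigned to the transcript with this junction, with the 5 bases that Tubb3-202 skips in capitals.
Tubb3-201: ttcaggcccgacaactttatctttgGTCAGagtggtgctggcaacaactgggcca
Tubb3-202: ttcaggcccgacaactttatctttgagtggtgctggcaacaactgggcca
Tubb3-201 had 0 counts in each HE population, where 3 counts would be 4.26% of the Tubb3 counts in HE-AGM, against 1.79% in HE-YSA and 1.09% in HE-YSP. No read in these cells was therefore assigned to the full-length Tubb3 coding transcript. Cell values that were whole numbers held 1.02% of the Tubb3-202 counts. Nearly all Tubb3 counts thus lay in cell values that included a read split among the transcripts it matches, and the size of the split part was not measured.

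Tubb6 separated the yolk sac populations instead of the tissues. It stood at 31.6 CPM in c3, 36.1 in c4 and 28.3 in c5, at 7.43 CPM in a1, 6.82 in a2 and 11.5 in p1, and at 54.4 CPM (54.45) in b2, 18.8 in b3 and 24.1 in p2. HE-AGM (33.5 CPM, 27.7 to 40.5) and HE-YSP (36.9 CPM, 28.4 to 47.5) did not differ beyond counting error, at a log2 ratio of −0.14 (−0.58 to 0.36). HE-YSA at 7.09 CPM (4.02 to 12.3) lay below both, with log2 ratios of 2.24 (1.47 to 3.26) for HE-AGM over HE-YSA and 2.38 (1.56 to 3.43) for HE-YSP over HE-YSA. Each was above 0 in all 3 runs, from 2.11 to 2.58 and from 1.81 to 3.35. Only 7 of 52 HE-YSA cells had 1 count or more, against 21 of 49 in HE-AGM and 20 of 49 in HE-YSP. Within HE-YSP, b3 lay below b2 at a log2 ratio of −1.54 (−2.54 to −0.73).

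Tubb2a and Tubb2b, the near-identical brain beta-tubulins, were almost absent. Tubb2a had 14.4 counts in HE-AGM (4.31 CPM, 2.30 to 7.06) and fewer than 1 count in HE-YSA and in HE-YSP, where a count of 0 allows up to 1.57 and 1.79 CPM. Tubb2b had 1 count in a1, 1 in b2 and 0 in every other cluster. Levels this low were not distinguishable between populations at this depth for Tubb2b.

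**Figure D2:**
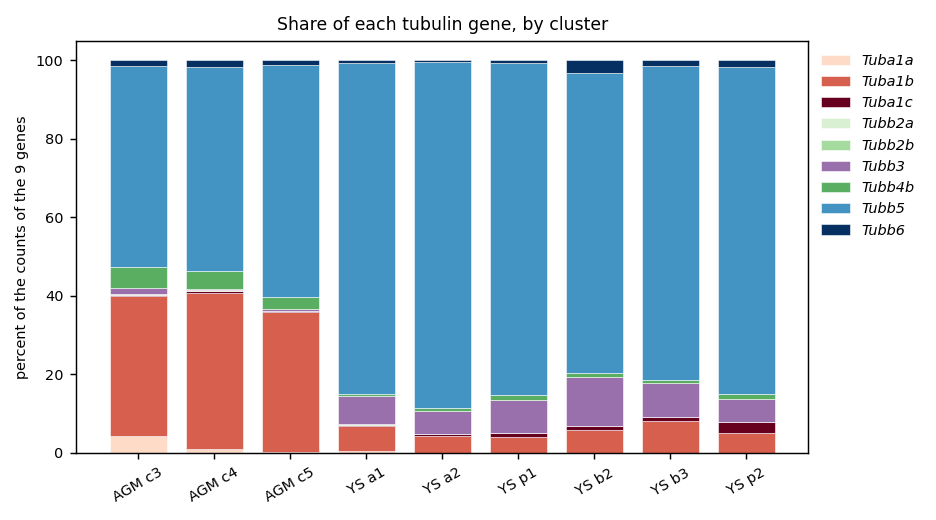
Percent of the summed counts of the 9 tubulin genes that falls on each gene (vertical axis), for the 9 clusters (horizontal axis), as counted reads with no length correction. Tubb5 takes the largest share in every cluster, Tuba1b takes the next largest share of the AGM bars and a small part of the YS bars, and the Tubb3 and Tubb6 segments are widest in b2.

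As shares of the family, Tubb5 held 51.5% in HE-AGM, against 86.5% in HE-YSA and 77.8% in HE-YSP. Tuba1b held 37.4%, 5.12% and 6.65%, Tubb4b 5.03%, 0.727% and 0.934%, and Tubb3 0.965%, 6.35% and 11%. Per base of transcript, Tubb5 held 55.3%, 86.4% and 77.1% and Tubb3 1.93%, 8.91% and 15.6%, so the share of the short Tubb3 transcript was larger. Alpha- and beta-tubulin protein enter the heterodimer in equal number.

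The 3 alpha members and Tubb4b have near-identical copies in the genome to which some of the counts were assigned. By a rule of at least 90% identity over at least 300 bases on the same strand, 16 other genes match a member transcript, 12 of them an alpha and 4 a beta member. Of the alpha copies, 6 held over 1000 counts each. Among these, 5 are processed pseudogenes of 1342 to 1355 bases that match Tuba1b-201 (1743 bases) at 98.3% to 98.7% in the blastn search. The other, Gm49450, is annotated as a protein-coding gene. All 6 also match Tuba1a-201 and Tuba1c-201 under the rule, Gm3226 for example at 97.6% and 98.3%. In pairwise alignments, where gaps are not counted, Tuba1b-201 and Gm3226 differ at 11 of 1342 aligned bases, Tuba1b-201 and Gm14150 at 17 of 1354, and Tuba1b-201 and its functional neighbour Tuba1a at 23 of 1357.

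Tubb4b-201 (1598 bases) has the copies Tubb4b-ps1, at chr5:7179365-7180700, and Tubb4b-ps2, at chr1:24594087-24595423 on GRCm38, each of 1 exon. They differ from it at 19 of 1336 and 41 of 1329 aligned bases. Transcript bases 278 to 337 of Tubb4b-201 are shown because no gapless coding stretch of that length has more differences over both copies. Differences from Tubb4b are in capitals.
Tubb4b-201: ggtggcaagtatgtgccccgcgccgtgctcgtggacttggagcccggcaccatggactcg
Tubb4b-ps1-201: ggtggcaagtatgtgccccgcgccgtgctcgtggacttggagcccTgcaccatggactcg
Tubb4b-ps2-201: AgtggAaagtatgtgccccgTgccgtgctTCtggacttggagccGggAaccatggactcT
Here Tubb4b-ps1 differs at 1 base and Tubb4b-ps2 at 8. Tubb5-201, by contrast, is only 82.9% identical to Tubb4b-201.

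The copies moved against the genes. Gm3226 stood at 362 CPM in HE-AGM, against 757 CPM in HE-YSA and 883 CPM in HE-YSP. The 6 abundant alpha copies each lay below in HE-AGM, with log2 ratios from −1.14 to −0.79 against HE-YSA and from −1.32 to −0.90 against HE-YSP. Summed, the alpha copies held 1585 CPM in HE-AGM, against 3226 CPM in HE-YSA and 3634 CPM (3634.5) in HE-YSP, with 1450 to 1773 CPM in the AGM clusters and 3110 to 4848 CPM in the YS clusters. Tubb4b-ps2 stood at 471, 1159 and 1804 CPM and Tubb4b-ps1 at 234, 310 (309.7) and 240.2 CPM.

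With genes and copies added together, HE-AGM lay below both YS populations instead of above them. The alpha members with their copies summed to 2478 CPM (2425 to 2532) in HE-AGM, against 3308 CPM (3226 to 3390) in HE-YSA and 3751 CPM (3659 to 3845) in HE-YSP. The log2 ratio of HE-AGM over HE-YSA was then −0.42 (−0.46 to −0.37), at −0.75, −0.24 and −0.21 in the 3 runs, in place of 3.45 for the alpha members alone. Tubb4b with its copies gave −0.86 (−0.93 to −0.78) in place of 3.45 for Tubb4b alone, and −1.34 (−1.41 to −1.26) in place of 2.98 against HE-YSP. The alpha share of all members and copies was 55.2% (54.4 to 56) in HE-AGM, against 54.3% (53.4 to 55.2) in HE-YSA and 52.2% (51.3 to 53.1) in HE-YSP, beside the 40.7%, 5.88% and 7.77% of the members alone. With the copies added, alpha counts thus exceeded beta counts in all 3 populations. The beta members with their copies summed to 2012 CPM in HE-AGM, against 2782 CPM in HE-YSA and 3434 CPM in HE-YSP. By cluster this alpha share ran from 47.9% in b2 to 57.6% in b3.

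**Figure D3:**
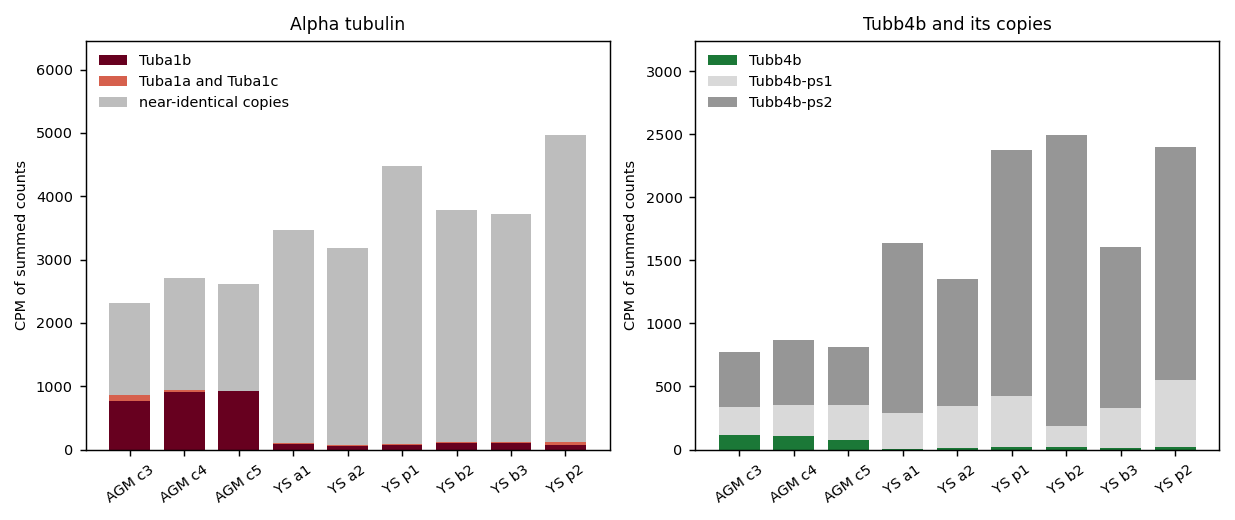
Summed CPM (vertical axes) by cluster, stacked, for Tuba1b, the other 2 alpha members and the near-identical alpha copies (left) and for Tubb4b and its copies Tubb4b-ps1 and Tubb4b-ps2 (right). The coloured gene segments are tallest in the AGM clusters, while the grey copies and the whole bars are taller in the YS clusters.

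The division of counts within each sequence family differed between the tissues. Of the counts on Tuba1b and the alpha copies, Tuba1b took 34.1% (33 to 35.1) in HE-AGM, against 2.16% (1.82 to 2.56) in HE-YSA and 2.67% (2.29 to 3.11) in HE-YSP. Single cells had a median of 31.8%, 0.767% and 2.06%, and 41 of 49 HE-AGM cells lay above every HE-YSP cell, although 1 HE-YSA cell reached 53.8%. Of the counts on Tubb4b and its copies, Tubb4b took 13.5%, 0.682% and 0.680%. The division is an estimate, in which a read is split among the transcripts it matches. Cell values that were whole numbers, within 1e-06, held 3.60% of the Tubb4b-201 counts, 8.72e-09% of the Tuba1b-201 counts and 0% of the Gm3226-201 counts. They held 4.04% of the Tuba1a-201 counts and 5.47e-07% of the Tuba1c-201 counts. Nearly all of these counts thus lay in cell values that included a split read.

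The mean length of the transcripts read moved with that share within the AGM clusters. Over single cells, the Pearson correlation of the Tuba1b share of the alpha counts with the cell's mean transcript length was 0.42 in c3 (29 cells), 0.57 in c4 (20 cells) and 0.65 in c5 (21 cells), points that share the library and the depth of each cell. In the 6 YS clusters it lay between −0.34 (a2, 29 cells) and 0.18 (b2, 25 cells). In all transcripts with enough counts, the median log2 ratio of HE-AGM over HE-YSA was −0.35 for lengths of 1000 to 1500 bases, which holds the processed copies, −0.00 for 1500 to 2000 bases, which holds Tuba1b-201, Tuba1a-201, Tubb4b-201 and Tubb6-201, and 1.58 from 4000 bases up. The mean is taken over the annotated lengths of the transcripts to which counts were assigned, tubulin included, and not over the lengths of reads. The part of transcript length in the division between genes and copies was not tested.

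**Figure D4:**
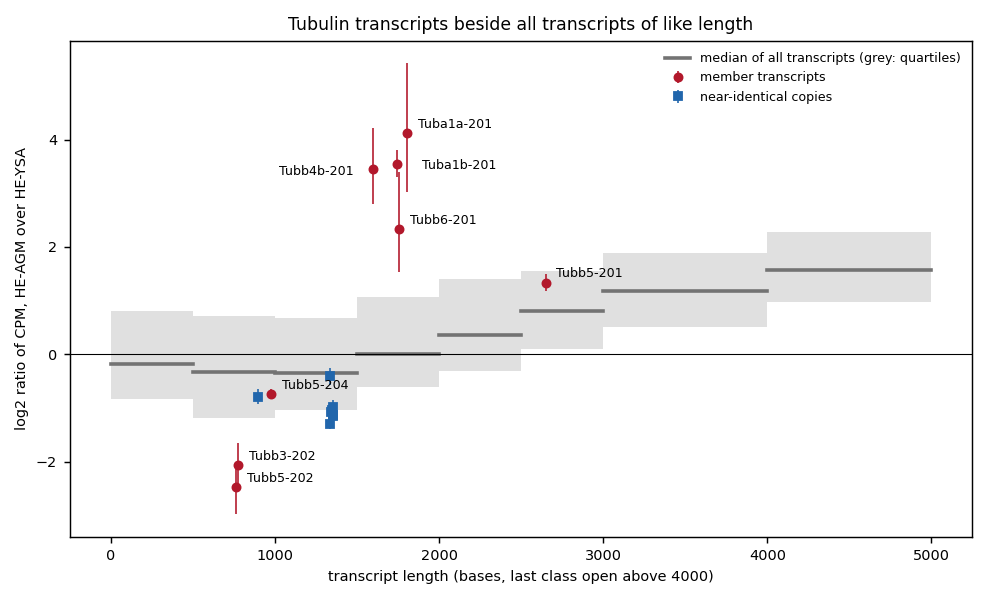
Log2 ratio of CPM, HE-AGM over HE-YSA (vertical axis), against transcript length in bases (horizontal axis), for member transcripts (red circles) and near-identical copies (blue squares) with 95% counting intervals, over the median (grey lines) and quartiles (grey areas) of all transcripts by length class. Tuba1a-201, Tuba1b-201, Tubb4b-201 and Tubb6-201 lie above the quartiles of their class, Tubb3-202 and Tubb5-202 lie below theirs, and Tubb5-201 and Tubb5-204 lie within theirs.

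Tubb5 was level as a gene but not in its transcripts. The full-length coding transcript Tubb5-201 has 2649 bases, the retained-intron transcript Tubb5-204 has 979 and the shorter coding transcript Tubb5-202 has 762. The last 657 bases of Tubb5-204 occur unbroken in Tubb5-201 and its first 322 do not, and 1684 bases of Tubb5-201 follow the shared stretch. The point where they part is shown because a read that reaches neither this junction nor the 3′ part of Tubb5-201 cannot tell them apart, with the shared bases in capitals.
Tubb5-201: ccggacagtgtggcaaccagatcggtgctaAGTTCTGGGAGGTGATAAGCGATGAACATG
Tubb5-204: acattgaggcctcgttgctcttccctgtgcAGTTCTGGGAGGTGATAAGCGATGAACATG
Whole-number cell values held 77.6% of the Tubb5-201 counts but 0.0285% of the Tubb5-204 counts. Nearly all Tubb5-204 counts thus lay in cell values that included a split read, and the size of the split part was not measured.

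Tubb5-201 held 51.8% (50.2 to 53.4) of the Tubb5 counts in HE-AGM, against 19.3% (17.7 to 21) in HE-YSA and 23% (21.2 to 25) in HE-YSP. By cluster it held 56.9% in c3, 45.2% in c4 and 58.6% in c5, and 22.8% in a1, 16.9% in a2, 22.4% in p1, 24.2% in b2, 21.4% in b3 and 18% in p2. The lowest AGM cluster thus lay above the highest YS cluster. Among cells with at least 10 Tubb5 counts, the share ran from 16.2% through a median of 51.4% to 100% in 47 HE-AGM cells, from 0.626% through 19.6% to 56.8% in 46 HE-YSA cells and from 0% through 22.1% to 94.1% in 46 HE-YSP cells. The ranges overlapped, with 45 of the HE-AGM cells above the HE-YSA median.

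Tubb5-204 took most of the rest, with 46.9% (45.2 to 48.4) in HE-AGM, against 73.7% (71.8 to 75.5) in HE-YSA and 68.1% (66 to 70.2) in HE-YSP. Tubb5-202 took 1.34%, 6.98% and 8.84%. In levels, Tubb5-201 stood at 585, 232 and 269 CPM, with a log2 ratio of HE-AGM over HE-YSA of 1.33 (1.19 to 1.49) and of 1.87, 1.20 and 1.08 in the 3 runs. Tubb5-204 stood at 529, 885 and 794 CPM (log2 ratio −0.74, −0.84 to −0.64) and Tubb5-202 at 15.1, 83.8 and 103 CPM (−2.47, −2.97 to −2.02). HE-YSP over HE-YSA differed less, at 0.21 (0.02 to 0.40) for Tubb5-201 and −0.16 (−0.26 to −0.05) for Tubb5-204. For HE-AGM over HE-YSA, the median log2 ratio of all transcripts was 0.81 for 2500 to 3000 bases, the class of Tubb5-201. For 500 to 1000 bases, the class of Tubb5-204 and Tubb5-202, it was −0.33, with quartiles of −1.19 and 0.71. Tubb5-202 lay below the lower quartile. The part of transcript length in these ratios was not tested.

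**Figure D5:**
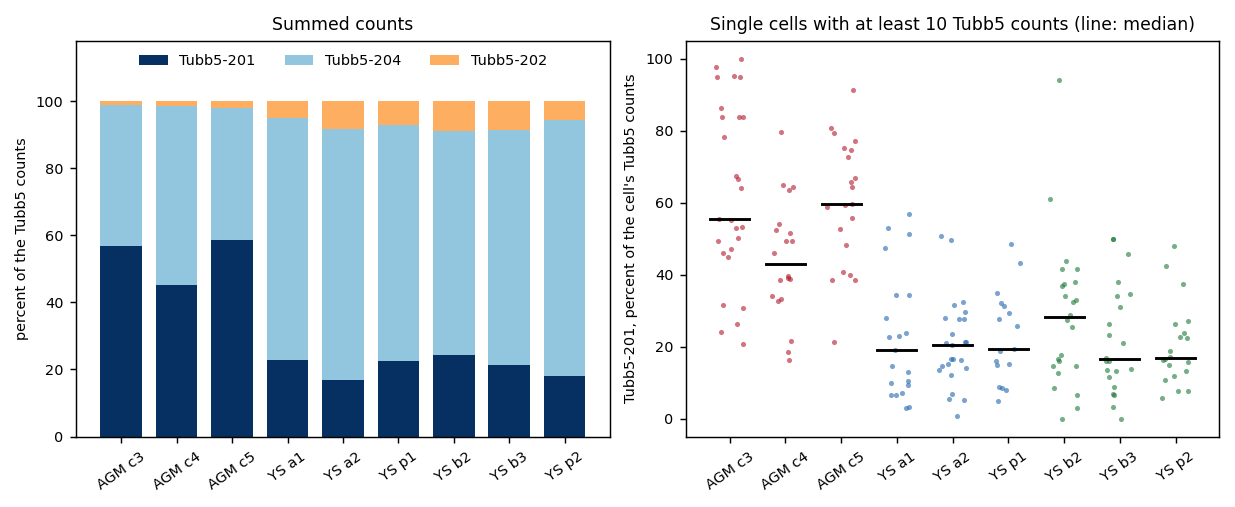
Percent of the Tubb5 counts on Tubb5-201, Tubb5-204 and Tubb5-202 in the summed counts of each cluster (left, stacked bars) and percent on Tubb5-201 in each cell with at least 10 Tubb5 counts (right, points, black line the cluster median). The Tubb5-201 part is 45.2% to 58.6% in the AGM clusters and 16.9% to 24.2% in the YS clusters.

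The other members showed little transcript variety. Tuba1b-201 held 99.7% of the Tuba1b counts in HE-AGM, against 98.5% in HE-YSA and 98.2% in HE-YSP. Tuba1c-201, Tubb4b-201 and Tuba1a-201 held all counts of their genes in these populations. Tubb6-201 held 98.2%, 92.6% and 100%, the second on 13.5 counts.

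Whether a member rose or fell in step with others was looked at over the 9 clusters among 5868 genes. The gene most like Tuba1a was Skil (Pearson r of log2 levels 0.95), like Tubb3 Iscu (0.98), like Tubb4b Ppp3cb (0.99), like Tubb5 Mcts1 (0.86) and like Tubb6 Gdi2 (0.89). Tuba1b was most like the unnamed genes ENSMUSG00000121776 (1.00) and ENSMUSG00000121784 (0.99). With 9 points split into AGM and YS, any gene that differs between the tissues scores high. Across cells, the summed alpha and beta members correlated at r = 0.39 in HE-AGM (49 cells), −0.09 in HE-YSA (52 cells) and 0.25 in HE-YSP (49 cells), but at 0.71, 0.74 and 0.75 with the copies added to both.

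Microtubules also need folding, nucleation and motor proteins, and these partners are given from lists of whole complexes and families. Their counts stand beside 29.8% of all genes higher in HE-AGM than in HE-YSA and 12% that were lower, and beside 31.6% and 13.2% for HE-YSP. Tubulin is folded by the CCT chaperonin, of whose 8 subunit genes 0 were at least 2-fold higher and 1 was lower in HE-AGM than in either YS population. That gene, Cct4, stood at 152 CPM against 452 CPM in HE-YSA and 431 CPM in HE-YSP (log2 ratios −1.58 and −1.51). Of the 6 prefoldin genes, which hand tubulin to CCT, 0 were apart from HE-YSA and 1, Vbp1, was higher than in HE-YSP (1.01). Of the 6 cofactors that assemble the heterodimer, Tbcd (1.03) was higher and Tbcc (−1.15) lower than in HE-YSA, and Tbca (1.31) was higher and Tbcc (−1.39) lower than in HE-YSP.

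Of the gamma-tubulin ring complex, which nucleates microtubules, 7 of 9 listed genes had enough counts. Against HE-YSA, Tubgcp3 (1.29), Tubgcp4 (1.28) and Tubgcp6 (2.90) were higher in HE-AGM and Mzt2 (−1.07) was lower; against HE-YSP, Tubgcp3 (1.34), Tubgcp6 (2.12) and Mzt1 (1.34) were higher and Mzt2 (−1.12) lower. Gamma-tubulin itself, Tubg1, stood at 45.4 CPM in HE-AGM, against 70.3 CPM in HE-YSA and 76.0 CPM in HE-YSP. Stathmin, Stmn1, which binds free tubulin dimer, stood at 298, 117 and 84.7 CPM (log2 ratios 1.35 and 1.82). Its neuronal relative Stmn2 stood at 21 and 11.5 CPM in HE-AGM and HE-YSA and at 0 counts in HE-YSP, so it was at least 11.7-fold higher in HE-AGM than in HE-YSP against a floor of 3 counts.

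Of 13 motor genes with enough counts, 7 were at least 2-fold higher in HE-AGM than in HE-YSA, beside 29.8% of all genes, and 5 than in HE-YSP, beside 31.6%. None was lower in HE-AGM in either comparison, and 0 of 11 were apart between the YS populations. Among them, Kif11, the mitotic spindle motor, had log2 ratios of 4.65 and 3.47, Kif3a, a transport and ciliary motor, 2.61 and 2.67, and Kif2c, a microtubule depolymerase of the centromere, 1.32 and 1.44. The median of the 13 was 1.04 against HE-YSA, beside 0.26 for all genes. Over all transcripts that median ran from −0.35 for lengths of 1000 to 1500 bases to 1.58 from 4000 bases up. The part of transcript length in the ratios of the partner genes was not tested.

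Of 11 microtubule-associated proteins with enough counts against HE-YSA, 3 were higher in HE-AGM and 0 lower: Clasp2 (2.81) and Clasp1 (1.70), which stabilise plus ends, and Map7d1 (1.95). Against HE-YSP, Clasp1 (2.29), Clasp2 (2.21) and Ckap5 (1.25), a microtubule polymerase, were higher and Map1b (−1.46) and Mapre2 (−1.06) lower. Between the YS populations Mapre2 (1.69), Clip1 (1.35) and Map7d1 (1.25) were higher in HE-YSP. Of the enzymes that modify tubulin, Ttll4, a polyglutamylase, was higher in HE-AGM than in HE-YSA (1.59) and HE-YSP (2.16), and against HE-YSP Atat1, the alpha-tubulin acetylase (4.81, on 1 HE-YSP count), and Agbl5 (1.09) were higher and Ttll1 (−1.35) lower. Of the tubulin mRNA decay factors, Cnot11 (2.02) was higher in HE-AGM than in HE-YSA, and 0 of 2 were apart from HE-YSP.

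The sum of the 9 members followed proliferation markers over single cells in part. The 17 cycling markers listed summed to 2930 CPM in HE-AGM, against 1741 CPM in HE-YSA and 2242 CPM in HE-YSP. Within populations, the correlation of the 9 members with these markers was 0.54 in HE-AGM, against 0.47 in HE-YSA and 0.25 in HE-YSP, over cells that share depth and library. The part of cell cycling in the difference of the tubulin sum between populations was not tested.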

How the data were processed

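Single-cell cDNA was read by nanopore sequencing. The authors basecalled with Dorado, trimmed adapters, removed chimeric reads, aligned with minimap2 2.26 to GENCODE transcripts keeping several alignments per read, and estimated with NanoCount. The deposited files hold estimated counts per transcript and cell, which share multimapping reads out, and deposited TPM, which are those counts scaled to a total of 1000000 per cell with no length term. They were used as deposited. Cells below the library-size limit (median minus 1 scaled MAD, 17595 counts) were left out, as the study did with low totals. Counts were summed over transcripts and cells and divided by the summed totals. A gene counted as apart at 2-fold with at least 50 counts over both groups. A count of 0 allowed 3 counts. With 1 sample a group, no test was run. Named were all members, their transcripts above 5% of the gene, the other tubulin genes, and up to 5 partners a list 2-fold apart, largest ratio first.

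Members and lists were chosen with earlier results of these data known. The rule for near-identical copies, the addition of copies and the mean of single-cell isoform fractions were chosen after seeing the data. Sequences and positions came from GENCODE M21 on GRCm38, searched with blastn 2.17.0. The deposited row names follow a later GENCODE release, whose positions were not used here. No cell barcode was shared within a run. Code ran in Python 3.11.15 with pandas 2.3.3, scipy 1.17.1, matplotlib 3.10.9 and numpy 2.4.6. Size factors came from DESeq2 1.42.0 in R 4.3.3 on rounded estimated counts. The ratio and interval code was tested on simulated data. Alternatives covered scaling, cell weighting, TPM, depth, library limit, run, day, project, doubtful cells, transcript length, isoform class and shared reads.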

Additional observations from a re-analysis of the deposited data

Results flagged for a closer look

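The 13 cells below the library-size limit, which no comparison used, also carried tubulin reads. Their totals ran from 95 to 17493 counts, and the 9 members summed to 187.95 of 98222 counts, or 1914 CPM, a level between those of HE-YSP and HE-AGM. With the near-identical copies added they held 11847 CPM, above every cluster of the cells used, the highest of which was p2 at 8725 CPM. They were singled out because the signal lies outside the cells compared.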

How the results depend on the processing

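No paired analysis was possible because each cell was sequenced once and populations are single samples. Of 126 recomputed values of the summed level, the number of genes 2-fold apart and the alpha share, 81 stayed within their counting error, 40 moved and 5 reversed; of 357 others, 289 stayed, 64 moved and 4 reversed. The cause was not tested except where the alternative's own construction shows it.

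The log2 ratio of the summed level, HE-AGM over HE-YSA, was 0.66. It was 0.82 with DESeq2 size factors, 0.11, 0.91 and 0.95 in runs 1, 2 and 3, 0.50 with E10.5 YS cells alone, 0.021 with named pseudogenes added and −0.44 with all near-identical copies added. Over HE-YSP it was 0.55, then 0.75, −0.077, 0.64, 1.04, 0.40, −0.29 and −0.68 in the same order. HE-YSP over HE-YSA was 0.11, and 0.020 with cells thinned to 17000 counts, 0.19, 0.27 and −0.092 in the 3 runs, 0.31 with pseudogenes and 0.24 with copies. Size factors shifted the median of all genes by 0.22 and 0.24 in the AGM comparisons. Genes 2-fold apart numbered 5, 4 and 1. The first ran from 4 to 6 and the second from 4 to 5 over the alternatives, and the last became 2 in runs 2 and 3.

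The alpha share in HE-AGM (40.7%) was 39.6% with size factors and with the largest cDNA project alone, 39.4% with cells weighted equally or TPM, 26.2%, 43.4% and 46.7% in the 3 runs, 30.7% with pseudogenes, 36.3% per length and 55.2% with copies. In HE-YSA (5.88%) it was 4.69%, 11.8% and 3.45% in the runs, 4.14% at E10.5, 2.85% with pseudogenes, 3.74% per length and 54.3% with copies. In HE-YSP (7.77%) it was 3.89%, 9.14% and 12%, 3.28%, 5.01% and 52.2%.

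With pseudogenes added, Tubb4b reversed to −0.86 and −1.34. HE-YSP minus HE-YSA, the Tubb5-201 share turned to −1.20 points among protein-coding transcripts and the Tubb5-202 share to −0.17 points in run 2. Depth left Tubb2a and Tubb2b without ratios.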

Other observations

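Among the 11 other tubulin genes, Tuba4a, an alpha-tubulin gene abundant in platelets and striated muscle, was the one that moved with blood maturation in every trajectory. It stood at 2.73 CPM in c3, 8.82 in c4 and 139 CPM (139.1) in c5. In the YS it stood at 4.37 CPM in a1, 26.5 in a2 and 126 in p1, and at 4.81 CPM in b2, 23.3 in b3 and 139 (139.1) in p2. Each last step exceeded counting error, with log2 ratios of 3.98 (3.18 to 4.99) for c5 over c4, 2.25 (1.63 to 2.94) for p1 over a2 and 2.58 (1.87 to 3.38) for p2 over b3. These are counts of single samples, and no test was possible. By run, the level was 215, 133 and 95.1 CPM in c5, 126, 71.1 and 147 CPM in p1 and 212, 193 and 42.6 CPM in p2. At least 1 count was found in 16 of 21 c5 cells, 11 of 17 p1 cells and 13 of 20 p2 cells, against 8 of 49, 9 of 52 and 9 of 49 cells of HE-AGM, HE-YSA and HE-YSP.

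Tubb1, the beta-tubulin of megakaryocytes and platelets, had fewer than 1 count in each HE population. Tubd1 stood at 12.6 CPM in HE-AGM, 0.525 CPM in HE-YSA and 2.99 CPM in HE-YSP, and Tube1 at 6.01, 0 and 2.39 CPM. The HE-AGM levels rested on 42 Tubd1 counts in 7 of 49 cells and 20 Tube1 counts in 2 of 49 cells. Both genes fell short of the 50 counts required to count as apart.

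The YS cell from an AGM cDNA project had 25914 counts, of which 34.99 fell on Tubb5 and fewer than 1 on Tuba1b. Both other YS cells whose library name holds AGM had 3.82 and 2.00 Tuba1b counts.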
